A study of Mus musculus with 6 samples.

Results

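The mitosis and spindle genes are a module of 50 genes whose products drive chromosomes through cell division, from the cyclins that start mitosis to the proteins that part the daughter cells. Members were found by symbol among the probe sets annotated to a single gene, and each gene was taken at the probe set with the highest mean log2 signal over the 6 arrays. Of the 50 genes, 48 had such a probe set, out of 12393 genes with one, whereas Ccnb1 and Cdca8 had none. The 48 genes were covered by 89 single-gene probe sets in all, and every Spag5 probe set was followed. Lens RNA of newborn mice was profiled on Affymetrix arrays, with 3 wild-type and 3 Pax6 heterozygous samples. Each sample held the pair of lenses of 1 mouse at postnatal day 1, so that n is 3 mice per genotype. The wild-type mice were of NMRI background, and the heterozygous mice carried a lacZ allele of Pax6 on 1 chromosome and a wild-type copy on the other. The allele is carried in the whole animal and not in the lens alone. The comparison asks which transcripts differ in the lens when 1 copy of Pax6, a transcription factor of eye development, is lost.

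Mitosis is driven by cyclin B with Cdk1 and is ended when the anaphase-promoting complex marks cyclins and securin for destruction. Kinetochores hold chromosomes to the spindle, the checkpoint delays anaphase until all are attached, condensins compact the chromosomes, and the midzone guides cytokinesis. In the lens, dividing cells lie in the epithelium, mostly in the germinative zone, and leave the cell cycle when they become fiber cells. Many genes of the module are transcribed in G2 and M phase under the DREAM and MuvB complexes, which act through promoter elements named CHR (cell cycle genes homology region) and through CCAAT boxes bound by NF-Y.

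Signal is the authors' summary of a probe set on the linear scale, and signals of different probe sets cannot be set against each other as amounts of RNA. The 33 probe sets of olfactory receptor genes, used as a guide to background, had medians of 9.65 to 11.0 in the 6 samples and a highest 95th percentile of 15.9. Of the 48 members, 39 had a median signal above 15.9, and 30 lay above it on every array. Only 21 had a median of at least 50. The brightest probe set of Pax6, the gene targeted in this design, gave 1169, 1760 and 963 in the wild-type lenses and 942, 1170.1 and 882 in the heterozygous lenses, so that the genotypes overlapped and differed by −0.34 ± 0.24 (SE) on the log2 scale. The heterozygous sample was lower in all 3 same-numbered pairs, and the limma fit blocked on replicate number gave an unadjusted p of 0.0315. The next probe set differed by −0.69, was lower in all 3 pairs as well and had 0.000589 by that limma fit. Whether these probe sets lie in the part replaced by lacZ is not given in the sources used here, so they check the labels only in part. Crystallin beta B1 (Crybb1), a lens fiber product, read 15917 to 16264 in wild-type and 14419 to 16007 in heterozygous lenses. Foxe3, a defining factor of lens epithelium, stayed at 8.77 to 14.7, within the background range.

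Replicate 1 of each genotype stood apart in the module. Wild-type replicate 1 was the highest of the 3 wild-type samples for 39 of 48 members, and heterozygous replicate 1 was the highest heterozygous sample for 37. The summed signal of the 48 members was 7085, 2829 and 3857 in wild-type replicates 1 to 3, and 9146, 5095 and 5253 in heterozygous replicates 1 to 3. Wild-type replicate 1 therefore lay above heterozygous replicates 2 and 3, while each heterozygous sample exceeded the wild-type sample of the same number. The members also spread more among replicates than other genes. The median range within a genotype was 0.84 (wild-type) and 0.82 (heterozygous) on the log2 scale, against 0.40 and 0.41 over all genes. Same-numbered samples deviated together over all genes, so results are given for the unpaired comparison, which follows the methods, and for the same-numbered pairs.

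Transcripts of the module tended toward higher signal in heterozygous lenses. The log2 difference, heterozygous minus wild-type, was above 0 for 45 of 48 members, or 93.8%, where 47.0% of all genes were above 0. Its median was 0.46 over the members and −0.01 over all genes, and the members ranged from −0.67 for Spag5 to 1.03 for Ube2c. A difference above 0.4 was seen in 31 members, or 64.6%, and in 4.04% of all genes. The 3 members below 0 were Spag5, Nek2 and Cenpe. In lens RNA of this kind, more dividing cells and more RNA per dividing cell cannot be told apart.

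**Figure D1:**
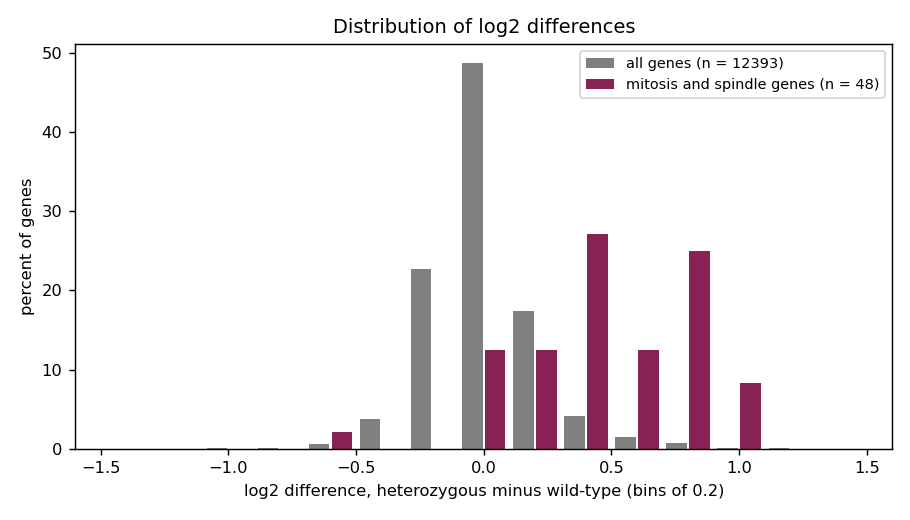
Percent of genes (y axis) in bins of 0.2 of the log2 difference between genotypes (x axis), for all 12393 genes in grey and for the 48 mitosis and spindle genes in purple. The grey bars centre on 0, whereas most purple bars lie to the right, with a single member, Spag5, far to the left.

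None of these differences passed the test across the array. In the unpaired limma fit, with Benjamini-Hochberg adjustment over all 22626 probe sets, 0 of 48 members had an adjusted p under 0.05, as did 0.0% of all genes, and the adjusted p of every member was 1.00. By the same limma fit, 6 members with p under 0.05 before adjustment were higher in heterozygous lenses, namely Cdca3, Melk, Zw10, Aurkb, Ncapd2 and Kif4, where 1.12% of all genes were called in that direction. Spag5 was the 1 member called lower, where the share of all genes was 1.12% as well. The signals of the genotypes did not overlap for 5 members higher in heterozygous lenses, which were Melk, Zw10, Aurkb, Ncapd2 and Kif4, against 2.57% of all genes. The same held for 1 member lower, Spag5, against 3.49%. These calls rested on few samples. Aurkb kept an unadjusted limma p under 0.05 in all 6 fits that left out 1 sample, with a highest p of 0.0485, but lost it without both samples numbered 2 (0.101) or 3 (0.0577) and on its other probe set (0.828). The unadjusted limma p was over 0.05 for Melk without heterozygous replicate 1 or 2 or wild-type replicate 3 (0.0561 to 0.0564), and for Kif4 without heterozygous replicate 1 or 2 or wild-type replicate 2 (0.0587 to 0.116). For Cdca3 it was over 0.05 without heterozygous replicate 1 or 2 or wild-type replicate 2 or 3 (0.0581 to 0.0938), and for Zw10 without heterozygous replicate 1 or 3 or wild-type replicate 1 or 2 (0.0973 to 0.136). For Ncapd2 only the fit without heterozygous replicate 3 stayed under 0.05, at 0.00658, and the other 5 gave 0.0642 to 0.0801. Of the other settings, quantile normalization, median centring and a variance prior with an intensity trend took Zw10 to limma p values of 0.0943, 0.0813 and 0.154 before adjustment, and its genotypes overlapped under the first 2. Ncapd2 was over 0.05 with log2(signal + 32) and with the trend (0.0547 and 0.0593), and Kif4 with log2(signal + 32) and with centring (0.0515 each). The methods' t-test, at the threshold of 0.1 that the methods use, called 7 members higher, which were these 6 and Plk1, and Spag5 lower, where 2.44% and 3.44% of all genes were called.

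Same-numbered pairs were also compared. Of the 48, 30 were higher in the heterozygous sample of all 3 pairs, where 14.4% of all genes were, and 1 was lower in all 3 pairs, where 17.6% of all genes were. The members above 0 numbered 38, 43 and 41 in pairs 1, 2 and 3, and the median pair difference was 0.37, 0.63 and 0.37 on the log2 scale. With the replicate number as a block in limma, 30 members were higher at an unadjusted p under 0.05, against 5.31% of all genes, and 1 was lower, again Spag5, against 4.52%. After adjustment, still 0 of 48 members passed with the block, where 0.0161% of all genes did. The block leaves fewer degrees of freedom but takes out the part of the spread that the pairs shared.

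**Figure D2:**
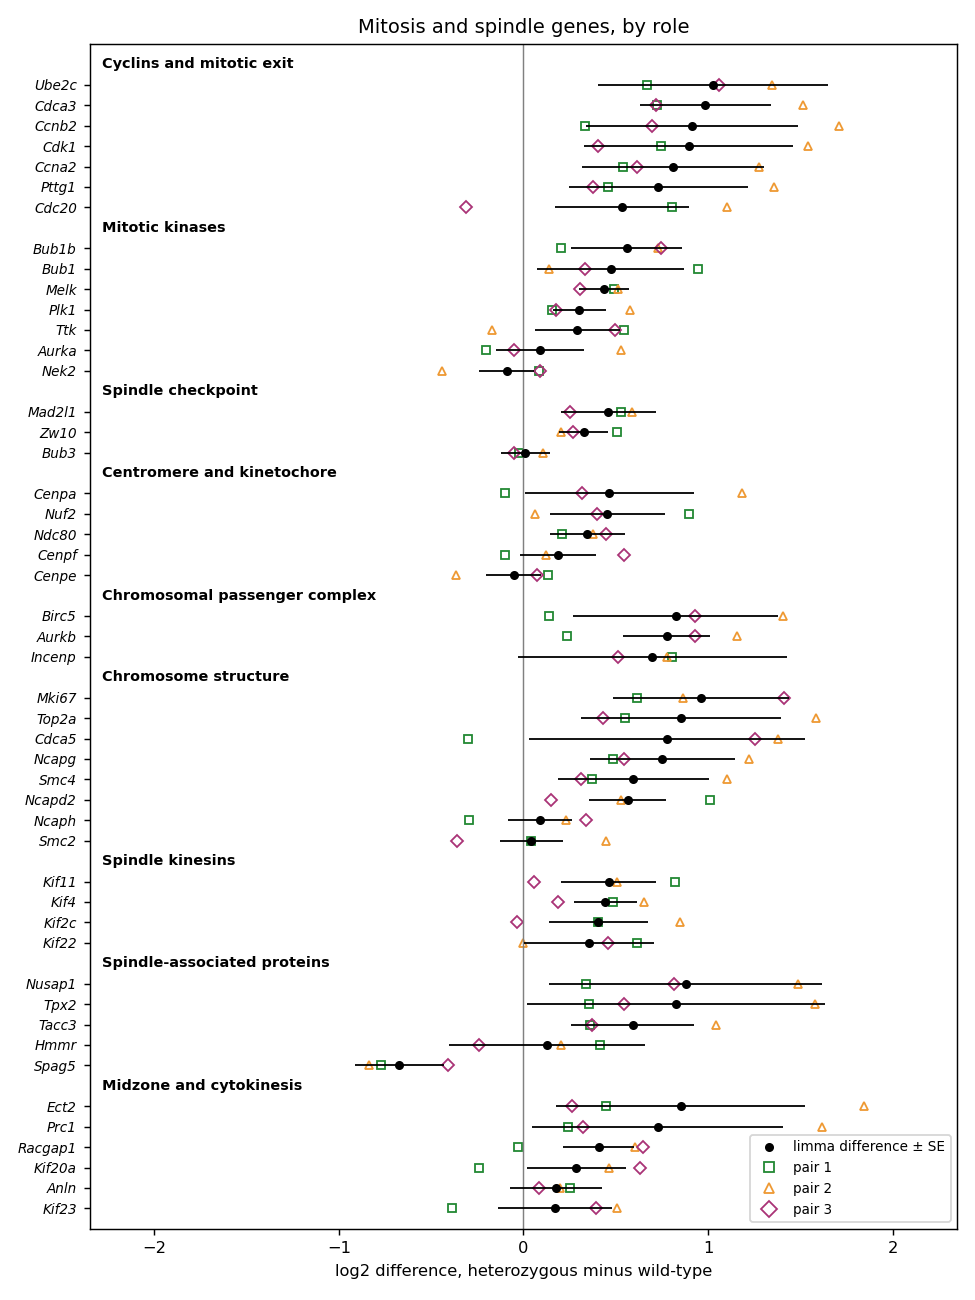
Log2 difference between genotypes (x axis) for each of the 48 members (y axis), grouped by role. Black points with bars give the limma difference ± SE, and open symbols give the 3 same-numbered pairs (n = 3 pairs). Most points lie to the right of 0, the bars of some reach 0, and Spag5 is the one member with all 3 pairs below 0.

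Cyclins and the proteins of mitotic exit showed a median difference of 0.90 on the log2 scale, and all 7 measured genes were above 0. Ube2c, the ubiquitin-conjugating enzyme of the anaphase-promoting complex, read 201, 68.5 and 48.4 in wild-type replicates 1 to 3 and 319.6, 174 and 101 in heterozygous replicates 1 to 3. Every heterozygous sample was above its wild-type partner, yet wild-type replicate 1 exceeded heterozygous replicates 2 and 3. The difference was 1.03 ± 0.62 (SE), with an unadjusted limma p of 0.147, or of 0.000476 with the replicate block. Cdca3, a trigger of mitotic entry that acts through degradation of Wee1, gave 143, 59.4 and 83.7 in wild-type and 237, 169.8 and 137 in heterozygous lenses. Only wild-type replicate 1 reached into the heterozygous range. Its difference was 0.99 ± 0.36 on the log2 scale, a 1.98-fold higher signal, with an unadjusted limma p of 0.0299. As the mean of its 3 probe sets, of which 2 are at background, it was 0.23 with an unadjusted limma p of 0.198. Securin (Pttg1), which holds separase in check until anaphase, had the highest median signal of the group, with 460.4, 171 and 188 against 633, 438 and 244. Its genotypes overlapped (0.73 ± 0.49). Ccna2, Ccnb2 and Cdk1, the cyclins and kinase at the core of mitotic entry, differed by 0.81, 0.91 and 0.90, each higher in all 3 pairs. Cdc20, the activator of the anaphase-promoting complex, was the exception of the group, since pair 3 went the other way (−0.31).

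Among the mitotic kinases, 6 of 7 were above 0, with a median of 0.30. Melk, a kinase expressed in dividing progenitor cells, was low, at 15.5, 15.6 and 14.2 in wild-type and 21.8, 22.2 and 17.5 in heterozygous lenses. All heterozygous values lay above all wild-type values, although the wild-type values were within the range of background. The log2 difference was 0.44 ± 0.14, with an unadjusted limma p of 0.0171. Bub1b, the checkpoint kinase also called BubR1, had the largest difference of the group, with 23.9, 14.2 and 11.2 against 27.5, 23.5 and 18.7. Wild-type replicate 1 exceeded heterozygous replicates 2 and 3, and the difference was 0.56 ± 0.30. Ttk, the kinase known as Mps1, had the highest median signal of the 7, at 22.4, 20.6 and 17.5 against 32.7, 18.3 and 24.6, and its genotypes overlapped. Nek2, a kinase of centrosome separation, read 11.8, 13.1 and 10.5 against 12.5, 9.67 and 11.1. These are background levels, and the genotypes overlapped, with a difference of −0.09 ± 0.15. Aurka and Plk1, the best known mitotic kinases, were also dim (10.7 to 18.8 and 12.8 to 19.0) and differed by 0.09 and 0.30.

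The 3 spindle checkpoint genes were above 0, with a median of 0.33. Zw10, part of the complex that brings dynein to kinetochores, read 21.1, 22.9 and 25.6 in wild-type and 29.9, 26.3 and 30.9 in heterozygous lenses. The genotypes did not overlap on the deposited scale, and the difference of 0.33 ± 0.13 had an unadjusted limma p of 0.045. They overlapped after quantile normalization (0.29) and after median centring (0.30). Mad2l1, the Mad2 protein that inhibits Cdc20, gave 79.8, 56.5 and 53.8 against 115, 85.1 and 64.2. Each heterozygous sample was above its partner, by 0.53, 0.59 and 0.25. Bub3, which is bound to Bub1 and BubR1, stood level at 223, 209 and 259 against 219, 225 and 249.9, a difference of 0.01 ± 0.13.

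Centromere and kinetochore genes were dim, and 4 of 5 were above 0, with a median of 0.34. Cenpa, the histone H3 variant of centromeres, had the largest difference, with 36.7, 10.5 and 16.8 against 34.3, 23.8 and 20.9. Wild-type replicate 1 was its highest sample of all 6, and the difference was 0.47 ± 0.46. Nuf2, which with Ndc80 binds microtubules, read 26.9, 20.4 and 23.3 against 50.02, 21.3 and 30.8, and the genotypes overlapped. Cenpe, a kinesin of the kinetochore, was at background (10.8, 11.5 and 11.3 against 11.9, 8.90 and 11.9) and differed by −0.05 ± 0.15.

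The chromosomal passenger complex, which corrects faulty attachments and later acts in cytokinesis, had a median of 0.77 over its 3 measured genes. Aurkb, its kinase, read 21.3, 14.8 and 12.4 in wild-type and 25.1, 33.1 and 23.7 in heterozygous lenses. No sample of one genotype entered the range of the other. The difference was 0.77 ± 0.24, a 1.71-fold higher signal, with an unadjusted limma p of 0.0151, the smallest of the 48 members. On its other probe set, 15.1, 16.0 and 16.4 stood against 16.6, 18.1 and 14.0, so that the genotypes overlapped near background and the difference was 0.03 ± 0.13. Birc5 (survivin), the subunit that binds phosphorylated histone H3, had the largest difference of this complex, at 881, 200.1 and 304 against 970.3, 529 and 578. The 2 samples numbered 1 were far above the rest of their genotype, and the difference of 0.82 ± 0.55 was not set apart from that spread. Incenp, the scaffold, showed the same order on its brightest probe set, with 638, 144 and 481 against 1113, 246 and 687. Its samples were arranged by number as much as by genotype, with replicate 2 lowest in both. The pair differences were 0.80, 0.78 and 0.51, so that the SE of 0.73 in the unpaired fit was 0.11 with the block, where the unadjusted limma p was 0.000706. Its other 2 probe sets, both dim, differed by 0.03 each.

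Genes of chromosome structure were above 0 in 8 of 8 cases, with a median of 0.67. Mki67, which coats mitotic chromosomes and is the usual marker of cycling cells, read 225, 109 and 66.3 in wild-type and 344, 198 and 176 in heterozygous lenses. Wild-type replicate 1 overlapped the heterozygous range. The difference was 0.96 ± 0.48, a 1.95-fold higher signal, with an unadjusted limma p of 0.0857, or of 0.00121 with the block. The condensin subunit Ncapd2 gave 25.7, 26.0 and 26.6 in wild-type against 51.7, 37.6 and 29.5. Its wild-type samples were close together and all heterozygous samples lay above them, by 0.56 ± 0.21 with an unadjusted limma p of 0.0339. Ncapg, another condensin subunit and the member with the highest median signal of the group, read 226, 99.96 and 106 against 317, 233 and 155, where wild-type replicate 1 again lay within the heterozygous range. Top2a, the topoisomerase that untangles sister chromatids, and Smc4, a condensin core subunit, differed by 0.85 and 0.59, each higher in 3 of 3 pairs. Smc2 and Ncaph, of the same complex, differed by 0.04 and 0.09 only. Cdca5 (sororin), which protects cohesion, differed by 0.78 but had an SE of 0.75, and pair 1 went the other way (−0.30).

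All 4 spindle kinesins were above 0, with a median of 0.42. Kif4, a chromosome-bound kinesin, was near background at 11.7, 8.63 and 11.5 in wild-type and 16.4, 13.6 and 13.1 in heterozygous lenses. Its genotypes did not overlap, with a difference of 0.44 ± 0.17 and an unadjusted limma p of 0.0376. Kif11 (Eg5), the motor that pushes spindle poles apart, read 15.97, 13.8 and 13.5 against 28.2, 19.6 and 14.0. Kif22, a motor of chromosome arms, gave 36.8, 53.7 and 23.5 against 56.3, 53.7 and 32.2 on its brightest probe set, so that pair 2 had equal signals. On its next probe set, 32.3, 24.1 and 35.7 stood against 43.5, 43.4 and 47.6 with no overlap. Kif2c, a microtubule depolymerase, differed by 0.41 ± 0.27.

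Of the 5 spindle-associated proteins, 4 were above 0, with a median of 0.59. Nusap1, a microtubule bundling protein, read 387, 56.4 and 165 against 489.9, 158 and 289.9, a difference of 0.88 ± 0.74. Tpx2, the activator of Aurora A, followed the same order with 404, 51.3 and 222 against 517, 153 and 324. Replicate 2 was the lowest of both genotypes in each gene, and each heterozygous sample exceeded its partner. Without wild-type replicate 2, the difference of Tpx2 was −0.02 in place of 0.83. Tacc3, a stabilizer of spindle microtubules, differed by 0.59 ± 0.33, and Hmmr, a spindle assembly factor, by 0.13 ± 0.53.

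Spag5 (astrin), which holds the spindle poles together and stabilizes kinetochore attachment, was the exception. Its brightest probe set (1433893_s_at) read 444, 462 and 267 in wild-type replicates 1 to 3 and 261, 258 and 202 in heterozygous replicates 1 to 3. Every heterozygous sample lay below every wild-type sample, although heterozygous replicate 1 and wild-type replicate 3 were close. The log2 difference was −0.67 ± 0.24, which is 0.628 times the wild-type signal, with an unadjusted limma p of 0.030 and an adjusted p of 1.00. With the block the SE was 0.12, the unadjusted limma p 0.00159 and the adjusted limma p 0.287. The second probe set (1433892_at) gave 147, 143 and 97.7 against 58.4, 108 and 68.2. Wild-type replicate 3 lay below heterozygous replicate 2 there, and the difference was −0.75 ± 0.28 with an unadjusted limma p of 0.0322. The third (1427498_a_at) stayed at 9.73, 10.6 and 11.8 against 10.4, 10.5 and 11.1, which is background, with a difference of 0.00 ± 0.12. The call on the brightest probe set depended on single samples, since the unadjusted limma p was under 0.05 in 3 of 6 fits that left out 1 sample and was 0.0946, 0.0906 and 0.0943 without wild-type replicate 1, wild-type replicate 2 and heterozygous replicate 3. Its log2 difference ranged from −0.92 to −0.53 over those 6 fits.

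**Figure D3:**
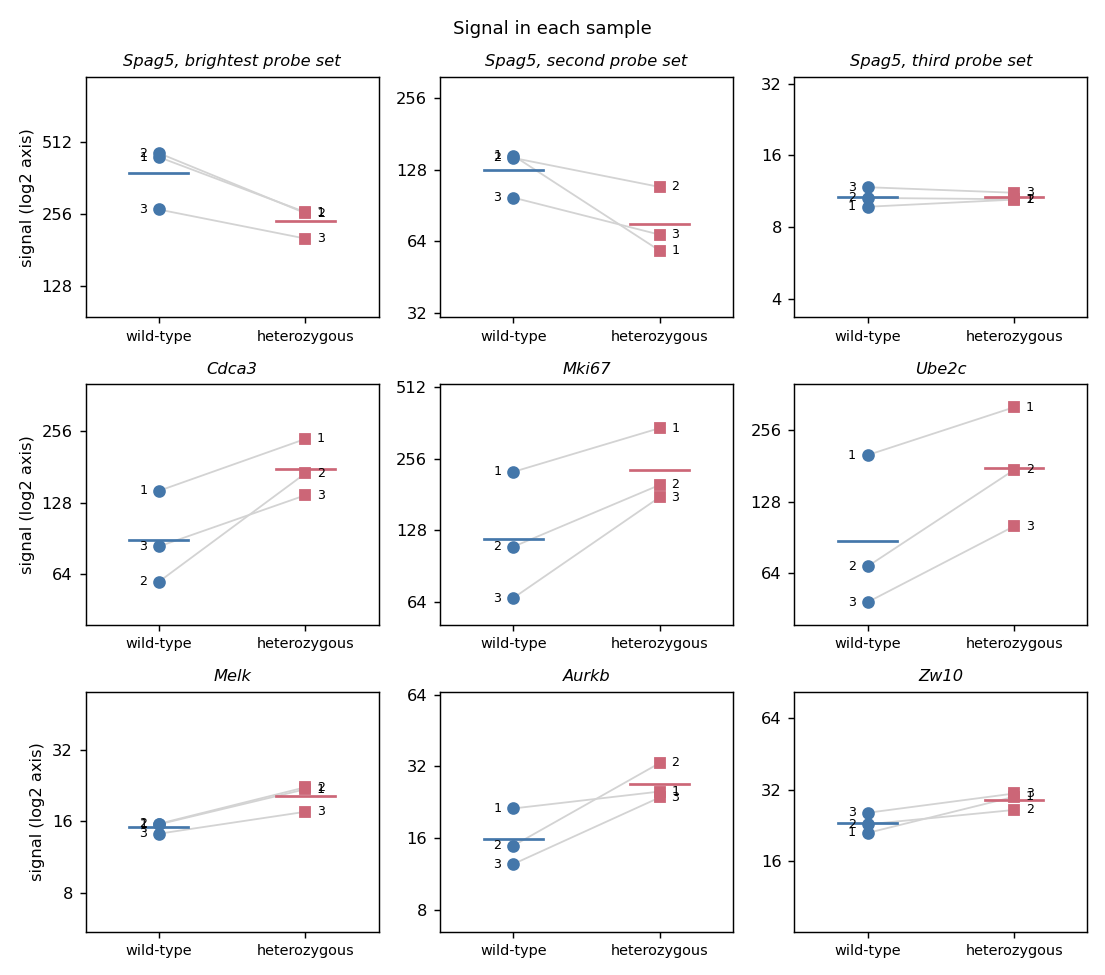
Signal of the 3 Spag5 probe sets and of 6 further members (y axis, log2 scale) in wild-type (blue circles) and heterozygous (red squares) samples, with grey lines between samples of the same number (1 to 3), short bars at the geometric mean, and n = 3 per genotype. The lines of the upper Spag5 plots slope down except at background, and those of Cdca3, Mki67, Ube2c, Melk, Aurkb and Zw10 slope up.

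The 6 genes of the midzone and of cytokinesis were all above 0, with a median of 0.35. Prc1, which crosslinks the midzone microtubules, had the highest median signal, at 450.3, 75.3 and 169 against 532, 231 and 211. Ect2, the exchange factor that activates RhoA at the cleavage furrow, had the largest difference, with 208, 37.6 and 181 against 283, 135 and 218. In both genes wild-type replicate 2 was the lowest sample. Pair 2 gave 1.61 and 1.85, and the other pairs 0.24 to 0.45. Racgap1, a centralspindlin subunit that binds Ect2, differed by 0.41 ± 0.19, and Anln (anillin), Kif20a and Kif23, which are a furrow scaffold and midzone kinesins, by 0.18, 0.29 and 0.17.

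The difference was larger where signals were clear of background. The 21 members with a median signal of at least 50 had a median difference of 0.75, and 20 of them were above 0. They also spread more, with a median wild-type range of 1.72, and wild-type replicate 2 lay low at a median deviation of −1.08. Their pair medians were 0.45, 1.28 and 0.43, and 0 of them were higher without overlap, where 1.46% of genes with such signals were. The 27 dimmer members had a median of 0.36, with 25 above 0. Their median wild-type range was 0.56, and 5 were higher without overlap, where 2.57% of all genes were. The 41 other probe sets of the members, most of them dim, had a median of 0.11, with 30 above 0. Of 25 members with several probe sets, 17 had all of them on the same side of 0 and 8 did not, namely Cdca3, Bub3, Top2a, Kif2c, Spag5, Nusap1, Hmmr and Kif23. Apart from Bub3, whose other bright probe set read 113.9 to 301 and differed by −0.28 ± 0.45, the opposite values came from 9 probe sets of 7 genes with differences of −0.18 to 0.00 at signals of 8.04 to 18.5, near background.

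Promoter sequences are shown for Spag5 and for the 3 members with the smallest unadjusted p among those higher in heterozygous lenses that have a window in the RefSeq table (GRCm38.p6), since these are the genes with opposite directions. Each window holds 250 bases before and 50 bases after the transcript start, read 5′ to 3′ on the strand of the gene. Capitals mark matches on either strand to CHR (TTTGAA, or TTCAAA on the other strand), the CCAAT box (CCAAT or ATTGG) and the E2F words TTTCCCGC, TTTGGCGC, TTTCGCGC and TTTGCCGC. The windows are chr11:78301341-78301640 on the plus strand for Spag5, chr4:44300667-44300966 on the plus strand for Melk, chr6:124829926-124830225 on the plus strand for Cdca3 and chr6:125191537-125191836 on the minus strand for Ncapd2.
Spag5: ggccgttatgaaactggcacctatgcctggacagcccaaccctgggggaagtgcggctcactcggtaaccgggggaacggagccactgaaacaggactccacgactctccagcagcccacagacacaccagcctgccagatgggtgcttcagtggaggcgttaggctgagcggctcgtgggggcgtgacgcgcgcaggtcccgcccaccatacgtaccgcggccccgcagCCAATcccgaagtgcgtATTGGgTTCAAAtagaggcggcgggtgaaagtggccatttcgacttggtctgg
Melk: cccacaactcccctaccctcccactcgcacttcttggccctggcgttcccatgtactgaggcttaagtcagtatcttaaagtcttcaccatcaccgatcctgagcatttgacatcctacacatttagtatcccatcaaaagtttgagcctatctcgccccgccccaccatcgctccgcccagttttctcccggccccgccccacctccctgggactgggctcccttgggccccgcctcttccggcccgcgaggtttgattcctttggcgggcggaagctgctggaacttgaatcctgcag
Cdca3: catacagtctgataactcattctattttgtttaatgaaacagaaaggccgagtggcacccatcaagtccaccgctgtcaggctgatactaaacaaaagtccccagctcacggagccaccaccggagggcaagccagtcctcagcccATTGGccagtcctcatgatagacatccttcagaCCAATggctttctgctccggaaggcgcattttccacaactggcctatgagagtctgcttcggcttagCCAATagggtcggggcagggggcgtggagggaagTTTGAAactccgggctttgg
Ncapd2: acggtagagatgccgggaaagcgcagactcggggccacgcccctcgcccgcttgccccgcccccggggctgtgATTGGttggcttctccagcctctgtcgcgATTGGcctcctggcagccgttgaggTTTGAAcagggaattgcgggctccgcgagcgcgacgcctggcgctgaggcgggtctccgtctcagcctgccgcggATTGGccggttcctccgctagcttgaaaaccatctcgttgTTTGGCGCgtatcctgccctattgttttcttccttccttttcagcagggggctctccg
The Spag5 window held 1 CHR and 2 CCAAT boxes around the transcript start. The Cdca3 window held 1 CHR and 3 CCAAT boxes, the Ncapd2 window held 1 CHR, 3 CCAAT boxes and 1 E2F word, and the Melk window held none of these letters. Spag5 thus had the same kinds of matches as Cdca3, which differed in the other direction.

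The matches were common to the module. A window was found for 42 of the 48 members, with 45 windows in all, and not for Ccna2, Incenp, Aurkb, Tpx2, Smc4 and Kif20a. A CHR match was present in 34 of 45 windows, or 75.6%, against 17.9% of all 32851 windows of the table and 16.0% of the 21262 windows of protein-coding genes. A CCAAT box was present in 71.1%, against 37.4% and 38.2%, and both were present in 64.4%, against 6.95% and 6.38%. An E2F word was found in 3 windows, those of Cdk1, Ncapg and Ncapd2, or 6.67% against 2.26% and 2.85%. No matches of different motifs overlapped. Of 44 CHR matches in these windows, 22 began between 50 bases before and 20 bases after the start, and 70 of 72 CCAAT matches began before it. Bub3, Ect2 and Prc1 have 2 overlapping windows each, so the counts of windows and matches hold some sites more than once. The median difference was 0.44 for the 31 members with a CHR match in a window and 0.46 for the 11 without. A match is a description of the letters and was not tested as a binding site.

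**Figure D4:**
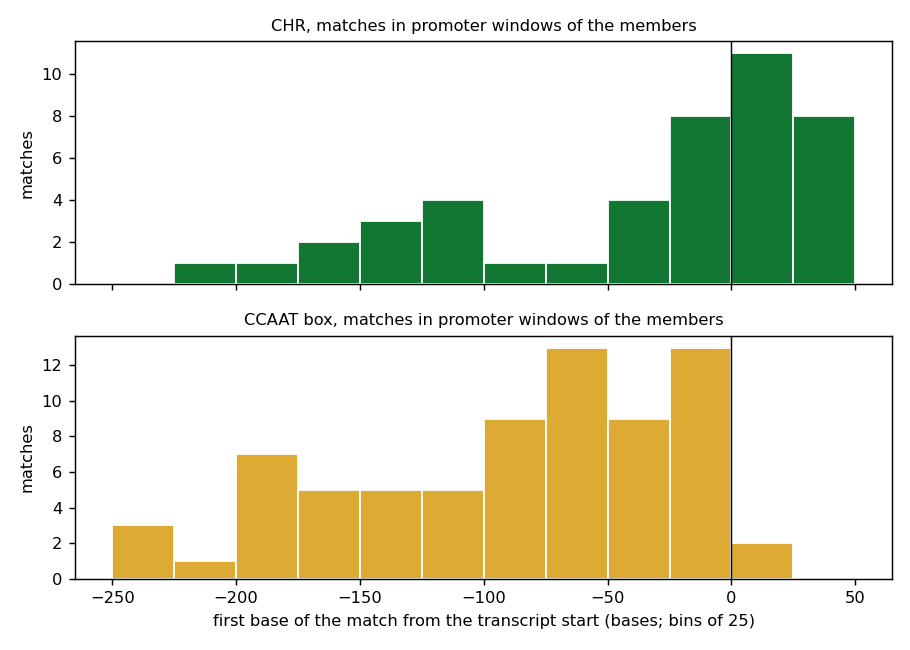
Number of matches (y axis) to CHR (upper plot) and to the CCAAT box (lower plot) in the promoter windows of the 42 members with a window, by distance of the first base of the match from the transcript start (x axis, bins of 25 bases). CHR matches gather around the start, and most CCAAT boxes lie before it. Sites in overlapping windows of a gene are counted in each window.

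Other genes of cell division and of the cell cycle had smaller median differences than the module, although some genes of each list were above 0.4 as well. Of 63 further mitosis genes outside it, 42 were above 0, with a median of 0.09 and a range of −0.44 to 1.15. The list is broad and also holds subunits of the anaphase-promoting complex. Among its genes, 10 were above 0.4, where 4.04% of all genes were, and 0 had an unadjusted limma p under 0.05. With the block, 11 were higher and 2 lower at that threshold, where 5.31% and 4.52% of all genes were. The 2 with the smallest p were Kpna2 (0.30 ± 0.15), an importin, and Cks1b (0.32 ± 0.18), a Cdk subunit. Larger differences with overlapping genotypes were also present, as in Cep55, an abscission protein picked after its values were seen, with 135, 17.6 and 51.7 against 202, 72.1 and 91.3 and a difference of 1.15 ± 0.76. Of 50 DNA replication genes, 39 were above 0, with a median of 0.21, and 14 were above 0.4. At an unadjusted limma p under 0.05, 4 were higher and 0 lower, where 1.12% of all genes were called in each direction. The block gave 15 higher and 0 lower, against 5.31% and 4.52% of all genes. The 4 included Ccne1, the cyclin of S phase entry, with 21.6, 15.2 and 22.1 against 30.0, 27.5 and 27.3, and Wdhd1, a replication fork protein, with 17.9, 15.4 and 14.4 against 19.9, 20.7 and 22.7. The genotypes of neither gene overlapped. Of 27 cell cycle regulators, 18 were above 0, with a median of 0.03, and 2 were above 0.4. By the unpaired limma fit, 1 was higher and 0 lower at an unadjusted p under 0.05, against 1.12% of all genes in each direction. The 1 regulator called was the transcription factor Myb, with 994, 889 and 1179.7 in wild-type and 1404, 1524 and 1286 in heterozygous lenses, a difference of 0.47 ± 0.15. Foxm1, a transcription factor of G2 and M phase genes, was near background at 12.0 to 17.5 and differed by 0.26 ± 0.14.

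Markers of other cell types moved with the module in part. Of 14 endothelial markers, 13 were above 0, with a median of 0.40, and their summed signal was 930.1 to 2171 in wild-type and 1198 to 3913 in heterozygous lenses. Wild-type replicate 1 and heterozygous replicate 1 were the highest of their genotype there as well, with median deviations of 0.34 and 0.91 from the mean of each gene, where the mitosis and spindle genes had 0.26 and 0.66. Pecam1, a defining endothelial marker, was near background at 9.62 to 20.6, whereas Tek, the angiopoietin receptor, read 628, 421 and 445 against 927, 604 and 617. Of 14 macrophage markers, 12 were above 0, with a median of 0.33. Their summed signal was 506 to 1536 in wild-type and 329 to 1726 in heterozygous lenses, with heterozygous replicate 3 the lowest, while Cd68 and C1qa were at 10.9 to 42.8. Of 13 markers of retina and retinal progenitors, 11 were above 0, with a median of 0.37 and sums of 1021 to 1382 and 1293 to 1830. Neurod1 (122, 141 and 140.4 against 197, 273 and 189) and Stmn3 (283, 171 and 234 against 346, 428 and 386), both neuronal genes, did not overlap between genotypes. Recoverin (Rcvrn), a photoreceptor marker, was at background. The part of these cells in the difference of the mitosis and spindle genes was not tested.

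Markers of the lens itself were mostly below 0. Of 10 lens epithelium markers, 2 were above 0, with a median of −0.19, or 2 of 9 with a median of −0.16 without Pax6 itself. Of 13 lens fiber markers, 2 were above 0, with a median of −0.08. The epithelium list includes the crystallins Cryaa and Cryab, and Foxe3, which was at background, so it is not particular to the dividing cells. Pdgfra, the growth factor receptor of lens epithelium, read 603, 558 and 692 against 431, 392 and 405, with no overlap and a difference of −0.59 ± 0.13. Krt18, an epithelial keratin, went the other way with the largest difference of this list, at 62.0, 71.1 and 29.9 against 163, 109.7 and 58.1 (0.99 ± 0.47), higher in all 3 pairs with overlapping genotypes. Dnase2b, the nuclease that degrades fiber cell DNA, read 732, 971 and 677 against 557, 639 and 466, again with no overlap, and differed by −0.51 ± 0.19. All 3 missed the adjusted limma threshold. In lens fibers the samples numbered 1 were the lowest of each genotype, with median deviations of −0.11 and −0.28, where those of the mitosis and spindle genes were the highest. Mesenchyme and red blood cell markers were above 0 in 4 of 10 and 1 of 4 cases.

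**Figure D5:**
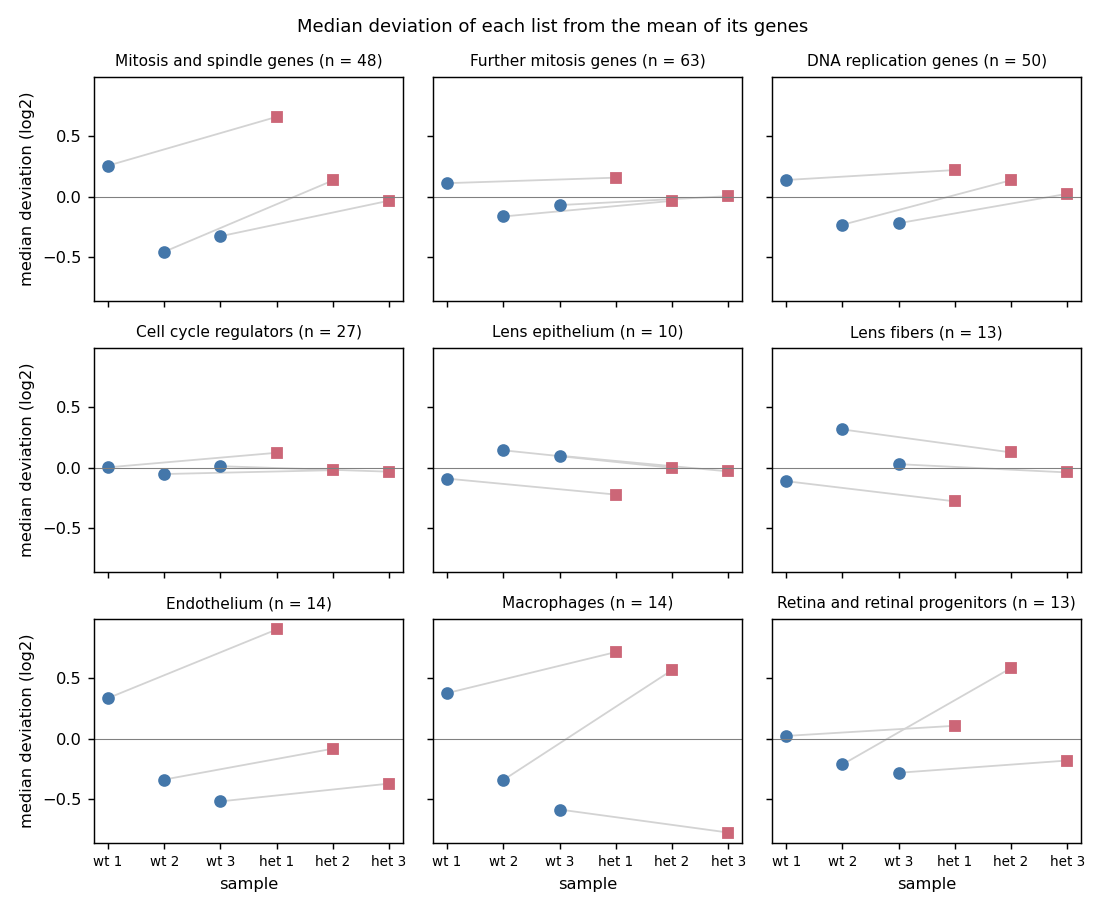
Median deviation from the mean of each gene (y axis, log2) in the 6 samples (x axis) for the mitosis and spindle genes and 8 comparison lists, with wild-type samples as blue circles, heterozygous samples as red squares and grey lines between same-numbered samples. The first panel shows 3 lines that go up from different heights, with the sample numbered 1 highest in each genotype, as in the endothelial panel, whereas it is lowest in the lens fiber panel.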

How the data were processed

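Lens RNA of 3 wild-type and 3 heterozygous mice was amplified with the NuGEN system and hybridized to Affymetrix arrays. The authors turned the array scans into one deposited intensity per probe set by RMA (background correction, normalization across arrays, summary per probe set), on a linear scale. The version is not given in the sources used here. RMA shrinks the ratios of dim probe sets, and an array has no read depth, so the number of arrays limits the precision. The log2 of each intensity was taken with no offset, 64 control probe sets were left out and 22626 were tested. By the annotation table, 20380 of these have 1 gene, 691 several and 1555 none. Of the single-gene probe sets, 20351 matched a RefSeq gene (GRCm38.p6) by Entrez number. Members were mapped through this table, with 1 probe set per gene.

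The genotypes were compared with limma 3.58.1 (lmFit, eBayes; two-sided) in R 4.3.3, with Benjamini-Hochberg adjustment across those 22626, called at 0.05. The fit was tested on simulated data. Deviations from the genotype means correlated at 0.645, 0.734 and 0.604 between same-numbered samples and at −0.496 to −0.0751 between others, so the replicate numbers were taken to pair the samples. The deviations of a gene sum to 0 within a genotype, so the negative values follow on balance from the positive ones. The pairing was thus read from the same data as the block fits. The labels do not say what a number stands for. The SE is that of the limma difference. Values in every sample are given for Spag5, for members with an unadjusted p under 0.05 or no overlap, for the member with the highest median signal and the one with the largest difference of each role group, and for members below 0. Of the further mitosis and DNA replication lists, the 2 genes with the smallest p are named. In the other lists this rule was not kept throughout, and none is named for mesenchyme and red blood cells. The genes named there include defining markers, Foxm1 among them, chosen after their values were seen. The members and lists were chosen with earlier results of these data known. Alternatives were another test, block, normalization, offset, filter, variance prior and probe set choice, and leaving out samples. Motifs were searched with Python 3.11.15, and figures were drawn with matplotlib 3.10.9.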

Additional observations from a re-analysis of the deposited data

How the results depend on the processing

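No alternative gave a member with an adjusted p under 0.05. Members above 0 numbered 40 to 45 of 48 when 1 sample was left out, and 20 of 21 with a median signal of at least 50. The median difference, 0.46, was 0.23 with log2(signal + 32), 0.75 with the signal filter and 0.30 to 0.64 when 1 sample was left out. Members with an unadjusted p under 0.05 numbered 7, where 2.24% of all genes were called, against 31 with the replicate block, where 9.83% were. They numbered 3 by the methods' t-test at the same threshold (3.03% of all genes) and 2 with the filter (1.59%). When 1 sample was left out, they numbered 2 to 21. The 21 came without wild-type replicate 1, where 2.53% of all genes were called, and without heterozygous replicate 3 it was 12, where 2.96% were. Without wild-type replicate 2 or 3 or heterozygous replicate 1, it was 2, 4 and 2, where 2.28%, 1.74% and 1.46% of all genes were called. Leaving out both samples of a number, which was added after seeing the data, gave 14 without number 1 and 0 without number 2. The shares of all genes were 1.62% and 2.28% there. Without number 3, 4 members were higher and 1 was lower, where 1.69% of all genes were called. Members higher without overlap numbered 5, where 2.57% of all genes had this pattern, against 0 with the filter, where 1.46% did. When 1 sample was left out, they numbered 5 to 29, and the share of all genes rose as well, to 5.12% to 6.91%. The 29 came without wild-type replicate 1, where 6.9% of all genes had this pattern. Without heterozygous replicates 2 and 3 it was 10 and 14, where 6.91% and 6.82% did. Without both samples numbered 1, 2 or 3 it was 29, 10 and 15, where 10.3%, 10.9% and 11.2% of all genes did. Spag5 differed by −0.65 and overlapped after quantile normalization, and its unadjusted p by the methods' t-test was 0.0754, which is under the threshold of 0.1 in the methods. The block leaves each difference as it is and moved only the errors.

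Of the members whose values are given in every sample, some turned sign, all near 0 but Tpx2. The other members were not followed one by one through the settings, and some of them may have turned as well. Bub3 was −0.0797 as the mean of its probe sets, −0.0161 after median centring, −0.0574 to 0.0975 with 1 sample left out and −0.0384 without number 2. Cenpe was −0.123 to 0.0857 and Nek2 −0.179 to 0.00391 with 1 sample left out, and 0.104 and 0.0852 without number 2. Tpx2, at 0.83, was −0.0232 to 1.46 with 1 sample left out, the lowest without wild-type replicate 2. The third Spag5 probe set was −0.000324 with log2(signal + 32), −0.0240 after centring, −0.0647 to 0.0718 with 1 sample left out and −0.0478 without number 1. The cause was not tested. The 3 mice per genotype, the spread among replicates, which was wider in the brighter members, and signals near background limit what could be called.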
